A study of Mus musculus with 12 samples.

Results

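The Notch genes examined here are 3 receptors (Notch1, Notch2, Notch3), 4 ligands (Dll1, Dll3, Jag1, Jag2) and 3 transcription factors of the Hes and Hey family (Hes1, Hey1, Hes6). They were taken by symbol from a table of 19680 genes, and all 10 were among the 11635 genes with enough reads to test. RNA came from the mouse embryonic stem cell line CJ9, either wild type or labelled arid4b∆, which had been differentiated towards endoderm or mesoderm for 5 days. The 4 groups of 3 libraries were wild type endoderm, arid4b∆ endoderm, wild type mesoderm and arid4b∆ mesoderm, and all shared the same line and time. Arid4b encodes a subunit of a SIN3 histone deacetylase complex, and the series asks about its role as stem cells commit to a lineage. The sources used here do not give the agents that directed the cells, the number of arid4b∆ clones, or whether the 3 libraries of a group were separate cultures. The p-values weigh a difference between groups against the spread among libraries of a group, and that spread may be only technical.

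Notch receptors are single-pass membrane proteins that bind ligands of the Delta and Jagged families on a neighbouring cell. Binding opens the receptor to cleavage by an ADAM protease and then by gamma-secretase, which frees the intracellular domain. That domain enters the nucleus, joins the DNA-binding protein RBPJ and a Mastermind co-activator, and switches on targets such as Hes1, Hey1 and Nrarp. Dll3 is an unusual ligand that is retained inside the cell and does not activate Notch on neighbours, and Hes6 is a family member that opposes Hes1. In the gastrulating embryo the pathway is best known for the segmentation of paraxial mesoderm, where Dll1 and Dll3 are expressed, and for the development of blood vessels.

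Arid4b itself was counted at similar levels in every group, so its counts do not check the label. Its level was 41.1 ± 3.98 CPM (counts scaled to library size; SD, n = 3) in wild type endoderm and 46.3 ± 4.29 CPM in arid4b∆ endoderm. In mesoderm the values were 42.1 ± 4.78 and 44.7 ± 2.99 CPM. Neither difference was called (edgeR adjusted p = 0.364 and 0.599), and "arid4b∆" is used below as the libraries are labelled. Totals lay between 10352411 and 35664057 counts per library, and 1949299 to 6678893 remained once the ribosomal RNA precursor Rn45s was removed. At that depth 3 counts were worth 0.506 to 1.55 CPM, so Hey1, with 3 to 16 counts in a library, was measured least precisely. The summed level of 7 primitive streak markers was 332 to 391 CPM in wild type endoderm, 254 to 506 CPM in wild type mesoderm and 29.4 to 51.9 CPM over the 6 arid4b∆ libraries, so the labelled lineage was not marked alike in both genotypes. The summed level of 7 definitive endoderm markers was 99.5 to 142 CPM in wild type endoderm and at most 19.1 CPM in every other library. These are bulk samples, in which fewer cells of a type and less RNA per cell cannot be told apart.

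On the GRCm38.p6 assembly, released as mm10, the receptors lay at chr2:26457902-26503822 (Notch1), chr3:98013538-98150367 (Notch2) and chr17:32120820-32166896 (Notch3). The ligands lay at chr17:15367354-15376932 (Dll1), chr7:28293555-28301785 (Dll3), chr2:137081451-137116520 (Jag1) and chr12:112907803-112929812 (Jag2). The transcription factors lay at chr16:30065357-30067796 (Hes1), chr3:8663359-8667038 (Hey1) and chr1:91411483-91414038 (Hes6). These are spans of whole genes in the RefSeq annotation. The microRNA genes Mir6996 and Mir6941, which overlap Notch1 and Jag2, held 2 and 3 counts over all 12 libraries. Hey1 overlaps the protein-coding model LOC115489673, and Notch1, Notch2 and Notch3 overlap models of long non-coding RNA. None of these other models has counts of its own in these data.

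The 250 bases upstream of the RefSeq start are shown for the 4 members with a listed promoter that were called between genotypes, Jag1, Dll3, Notch1 and Notch2, and for Dll1, as an example of a window that holds a searched motif. Sequences are in lower case, 5′ to 3′ on the strand of the gene, and end at the base before the start. The Jag1 window is chr2:137116521-137116770 (minus strand), the Dll3 window chr7:28301786-28302035 (minus), the Notch1 window chr2:26503823-26504072 (minus), the Notch2 window chr3:98013288-98013537 (plus) and the Dll1 window chr17:15376933-15377182 (minus). Capitals in Dll1 mark CACACC, the reverse complement of GGTGTG, 55 bases before the start.
Jag1: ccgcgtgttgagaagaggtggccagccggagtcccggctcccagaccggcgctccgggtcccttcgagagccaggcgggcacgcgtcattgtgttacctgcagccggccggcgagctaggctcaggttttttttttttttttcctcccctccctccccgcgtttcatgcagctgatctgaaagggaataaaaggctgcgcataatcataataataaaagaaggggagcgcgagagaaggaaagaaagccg
Dll3: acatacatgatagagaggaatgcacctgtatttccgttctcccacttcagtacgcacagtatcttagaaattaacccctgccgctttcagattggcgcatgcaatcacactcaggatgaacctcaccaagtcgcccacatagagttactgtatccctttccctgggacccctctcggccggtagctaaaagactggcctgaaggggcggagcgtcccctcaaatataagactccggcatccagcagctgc
Notch1: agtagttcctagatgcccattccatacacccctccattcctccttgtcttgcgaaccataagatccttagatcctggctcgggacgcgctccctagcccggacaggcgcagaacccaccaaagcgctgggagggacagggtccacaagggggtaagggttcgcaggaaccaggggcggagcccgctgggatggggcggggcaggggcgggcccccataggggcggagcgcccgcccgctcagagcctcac
Notch2: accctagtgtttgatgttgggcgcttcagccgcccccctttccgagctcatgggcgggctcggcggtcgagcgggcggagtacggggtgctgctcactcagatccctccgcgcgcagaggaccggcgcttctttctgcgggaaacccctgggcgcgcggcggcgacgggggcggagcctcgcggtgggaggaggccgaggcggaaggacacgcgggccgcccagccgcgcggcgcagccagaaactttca
Dll1: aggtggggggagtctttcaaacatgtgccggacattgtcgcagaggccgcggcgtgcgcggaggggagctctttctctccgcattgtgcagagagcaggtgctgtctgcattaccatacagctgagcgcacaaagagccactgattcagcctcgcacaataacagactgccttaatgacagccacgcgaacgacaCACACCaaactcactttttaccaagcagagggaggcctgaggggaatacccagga

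A RefSeq promoter was given for 8 of the 10 members, 10 promoters in all, and Hes1 and Hey1 were not among them. In all of these windows the ratio of observed to expected CpG was above the median of 0.3735 over 32851 promoters, and ran from 0.508 to 1.14. Only in Notch2 (1.06) and Jag2 (1.14) was CpG more frequent than expected from base content. Their GC content ran from 52.0% in Dll3 to 87.2% in Jag2, with a median of 52.4% over all promoters. The letters TGGGAA, the core of the RBPJ site, were searched on both strands and occurred in 0 of the 10 promoters of members and in 21.6% of all promoters. The T-box core GGTGTG occurred in 3 of these 10, both windows of Dll1 and 1 of 2 of Hes6, and in 16.3% of all promoters. The TCF/LEF core CTTTGA occurred in 0 of the 10 and in 13.8% of all promoters. None of the 3 motifs overlaps another in these windows. A match is a description of letters, and no match says only that these letters are not in this window.

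**Figure D1:**
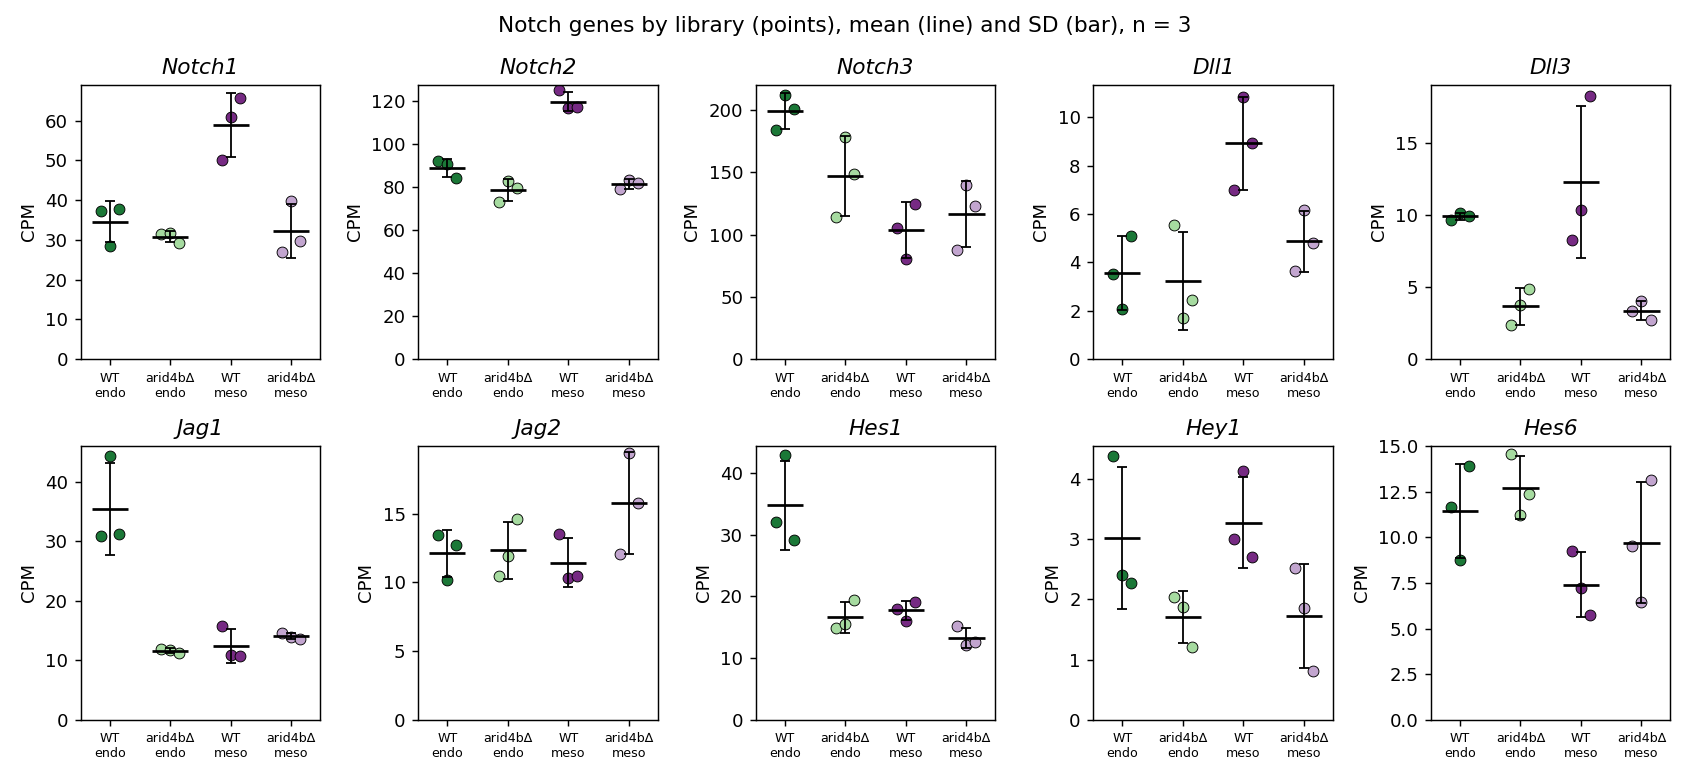
Level of each Notch gene in CPM (vertical axes, each starting at 0) in the 12 libraries, by group on the horizontal axes; points are libraries, lines are group means and bars are SD (n = 3). Jag1 stands at 30.9 to 44.4 CPM in wild type endoderm and at 10.8 to 15.8 CPM in the other 9 libraries, and Dll3 is lower in the arid4b∆ libraries of both lineages.

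Levels of different genes were compared per kilobase of exon. Notch3 had the highest mean in every group, at 24.6 ± 1.76 CPM per kilobase in wild type endoderm (SD, n = 3), with all of its libraries (22.8 to 26.3) above those of the next gene, Hes1 (14.3 to 21.0). Notch2 followed at 8.25 CPM per kilobase, then Hes6 at 6.33 and Jag1 at 6.09, whose libraries overlapped. Dll3 stood at 3.47, Notch1 at 2.43 and Jag2 at 1.74 CPM per kilobase, and Hey1 (0.924) and Dll1 (0.843) came last with overlapping libraries. In wild type mesoderm Notch3 (12.8 CPM per kilobase) and Notch2 (11.1) overlapped at the top and Hes1 was next at 8.69. Dll3, Notch1 and Hes6 overlapped at 4.31, 4.14 and 4.10 CPM per kilobase, as did Jag1, Dll1 and Jag2 at 2.14, 2.12 and 1.64, and Hey1 was lowest at 1.00. In arid4b∆ endoderm Notch3 led at 18.2 CPM per kilobase, and Hes1 (8.15), Notch2 (7.29) and Hes6 (7.03) followed with overlapping libraries. Below them stood Notch1 at 2.17, Jag1 at 1.99 and Jag2 at 1.77, then Dll3 at 1.28 and Dll1 at 0.764 CPM per kilobase; neighbours from Jag1 down overlapped. In arid4b∆ mesoderm Notch3 led at 14.4, followed by Notch2 at 7.55, Hes1 at 6.51 and Hes6 at 5.37 CPM per kilobase, of which the neighbours Notch2 and Hes1 overlapped, as did Hes1 and Hes6. Jag1 (2.41), Jag2 (2.26) and Notch1 (2.26) overlapped further down, as did Dll3 (1.18) and Dll1 (1.16). Hey1 was lowest in both arid4b∆ groups, at 0.523 and 0.529 CPM per kilobase.

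In endoderm, the comparison of arid4b∆ with wild type asks which Notch genes depend on the genotype in cells directed to that lineage. The ligands Jag1 and Dll3 and the target Hes1 fell, by 3.11-fold, 2.63-fold and 2.11-fold. The 3 receptors, the ligands Dll1 and Jag2, and Hey1 and Hes6 did not pass the test. Thus 3 of 10 members were called lower and 0 higher at an edgeR adjusted p under 0.05, where 6.92% of all tested genes were called lower, 5.78% higher and 12.7% in either direction. The median log2 fold change of the members was -0.31, against 0.00 over all tested genes.

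Jag1, the Jagged ligand best known from vessel and heart development, stood at 30.9, 44.4 and 31.2 CPM in wild type endoderm and at 11.9, 11.7 and 11.2 CPM in arid4b∆ endoderm. All arid4b∆ libraries lay below all wild type libraries, and the 3 arid4b∆ values were nearly level. The log2 fold change was -1.64 ± 0.17 (SE; 95% interval -1.98 to -1.29; edgeR adjusted p = 3.71e-07). Hes1, the bHLH repressor that is the most general Notch target, was at 32.1, 42.8 and 29.2 CPM in wild type endoderm and at 14.9, 15.5 and 19.5 CPM in arid4b∆ endoderm. Its groups did not overlap either, and the second wild type library was the highest for both Jag1 and Hes1. Its log2 fold change was -1.08 ± 0.16 (95% interval -1.40 to -0.76; adjusted p = 4.52e-05). Dll3 was at 9.63, 10.1 and 9.92 CPM in wild type endoderm and at 2.33, 3.74 and 4.87 CPM in arid4b∆ endoderm, with a log2 fold change of -1.39 ± 0.30 (95% interval -2.01 to -0.77; adjusted p = 0.00286). The 3 wild type libraries of Dll3 were close together and all lay above the arid4b∆ libraries. The definitive endoderm markers were lower too, from 99.5 to 142 CPM in wild type endoderm to 7.10 to 15.4 CPM in arid4b∆ endoderm. Of these 7 of 7 were called lower and none was at 0. The primitive streak sum fell as well (332 to 391 against 29.4 to 37.1 CPM), with 7 of 7 called lower. So did the endothelium and blood sum (60.1 to 77.2 against 6.96 to 9.33 CPM). Of the endothelium and blood list of 8 genes 3 were tested, and 2 of them, Flt1 and Kdr, were called lower. Only Flt1 of the 3 was called higher in wild type endoderm than in wild type mesoderm. The untested Cdh5, Tek, Tal1, Etv2 and Cd34 held 24, 57, 12, 10 and 27 counts over all 12 libraries. Tal1 was at 0 in arid4b∆ endoderm. The fibroblast and feeder markers moved the other way (26.3 to 86.4 against 89.5 to 296 CPM; 5 of 7 tested called higher, Lum at 0 in wild type endoderm). Their part in the results was not tested.

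Among the receptors, Notch3 had the largest difference in endoderm without passing the test. It stood at 184, 212 and 201 CPM in wild type and at 114, 178 and 149 CPM in arid4b∆ endoderm. The groups did not overlap, and the log2 fold change was -0.43 ± 0.16 (95% interval -0.76 to -0.11; edgeR adjusted p = 0.0749). It passed without a filter on low counts (adjusted p = 0.000769), with the replicate number as a block (0.0103) and with only the groups compared in the fit (0.0249). It also passed without arid4b∆ library 2 (-0.58, adjusted p = 0.0344). The other 9 of 13 alternatives did not pass, DESeq2 and limma-voom among them, with an adjusted p of up to 0.271. Notch2 also had groups that did not overlap, at 92.2, 90.5 and 84.2 against 73.2, 82.9 and 79.7 CPM, with a log2 fold change of -0.17 ± 0.09 (adjusted p = 0.215). Notch1 overlapped, at 37.4, 28.6 and 37.7 against 31.5, 31.8 and 29.2 CPM (log2 fold change -0.14 ± 0.15; adjusted p = 0.608). Hey1, a target often read in endothelial cells, was at 4.38, 2.41 and 2.27 CPM in wild type and at 2.04, 1.87 and 1.22 CPM in arid4b∆ endoderm, on 37 and 24 counts. Its groups did not overlap, but the step between them was smaller than 3 counts are worth (log2 fold change -0.79 ± 0.42; adjusted p = 0.254). Dll1, Jag2 and Hes6 overlapped between genotypes, with adjusted p of 0.844, 0.892 and 0.717. In all, 6 of 10 members had groups that did not overlap, where 30.2% of all tested genes did.

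In mesoderm the genes called between genotypes were 2 receptors and 1 ligand. Notch1, Notch2 and Dll3 fell, by 1.84-fold, 1.47-fold and 3.86-fold. Notch3, Dll1, Jag1, Jag2, Hes1, Hey1 and Hes6 did not pass the test. Thus 3 of 10 members were called lower and 0 higher, where 10.1% of all tested genes were called lower, 8.97% higher and 19.1% in either direction. The median log2 fold change of the members was -0.50, against 0.01 over all tested genes.

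Notch1, a receptor the embryo needs to develop, was at 50.0, 61.0 and 65.7 CPM in wild type mesoderm and at 26.9, 39.8 and 29.7 CPM in arid4b∆ mesoderm. The highest arid4b∆ library lay below the lowest wild type library, and the log2 fold change was -0.88 ± 0.14 (95% interval -1.18 to -0.58; edgeR adjusted p = 0.000157). Notch2 was at 125, 117 and 117 CPM in wild type and at 79.1, 83.3 and 81.9 CPM in arid4b∆ mesoderm. Libraries of a group were close together for Notch2, the groups were far apart, and the log2 fold change was -0.56 ± 0.09 (95% interval -0.74 to -0.37; adjusted p = 0.000108). Dll3 was at 8.26, 10.3 and 18.2 CPM in wild type and at 3.36, 4.01 and 2.68 CPM in arid4b∆ mesoderm. The third wild type library was well above the other two, but every wild type library exceeded every arid4b∆ library (log2 fold change -1.95 ± 0.32; 95% interval -2.61 to -1.29; adjusted p = 0.000143). The called values of both lineages kept direction and call in all 13 alternatives to the processing.

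Dll1, the ligand that drives Notch in presomitic mesoderm, was at 7.01, 10.9 and 8.94 CPM in wild type mesoderm and at 3.65, 6.17 and 4.82 CPM in arid4b∆ mesoderm. On 102 and 51 counts its groups did not overlap, and the difference did not pass the test (log2 fold change -0.84 ± 0.35; edgeR adjusted p = 0.0997). Hes1 was at 18.0, 16.0 and 19.1 CPM in wild type and at 15.1, 12 and 12.6 CPM in arid4b∆ mesoderm, again without overlap (log2 fold change -0.44 ± 0.19; adjusted p = 0.105). Hey1 was at 3.00, 4.13 and 2.70 against 2.52, 1.85 and 0.803 CPM, on 36 and 18 counts, without overlap (log2 fold change -0.84 ± 0.45; adjusted p = 0.21). As in endoderm, the step between the Hey1 groups was smaller than 3 counts are worth. Dll1, Hes1 and Hey1 and the 3 called genes made 6 of 10 members whose groups did not overlap, where 32.8% of all tested genes did. Jag1 was level, at 15.8, 10.9 and 10.8 CPM in wild type and at 14.6, 13.9 and 13.6 CPM in arid4b∆ mesoderm (log2 fold change 0.16 ± 0.20; adjusted p = 0.635), with overlapping groups. Notch3 (103 ± 22.4 against 116 ± 26.7 CPM; SD, n = 3), Jag2 (11.4 ± 1.80 against 15.8 ± 3.69 CPM) and Hes6 (7.41 ± 1.77 against 9.71 ± 3.32 CPM) also overlapped. Paraxial mesoderm markers, whose cells express Dll1 and Dll3 in the embryo, summed to 31.0 to 58.4 CPM in wild type mesoderm and 3.39 to 8.41 CPM in arid4b∆ mesoderm. Of that list of 6 genes, 2 were tested, Pdgfra and Mesp1, and both were called lower. The untested Tbx6, Msgn1, Mesp2 and Meox1 held 34, 48, 33 and 2 counts over all 12 libraries. Meox1 was at 0 in wild type, and Meox1, Mesp1 and Msgn1 were at 0 in arid4b∆ mesoderm. In endoderm the same sum was 30.6 to 40.5 CPM in wild type and 2.23 to 3.21 CPM in arid4b∆, with 2 of 2 called lower. Msgn1 was at 0 in both endoderm groups, so all of its counts came from wild type mesoderm. Mesp2 was at 0 in arid4b∆ endoderm. The fibroblast and feeder sum was 32.0 to 118 CPM in wild type and 102 to 245 CPM in arid4b∆ mesoderm, with 1 of 7 called higher. Neural markers summed to 94.2 to 138 CPM in wild type and 167 to 204 CPM in arid4b∆ mesoderm, with none at 0. Of that list of 7 genes 4 were tested, and 3 of them, Otx2, Pou3f1 and Sox3, were called higher. The untested Sox1, Pax6 and Zic1 held 11, 49 and 17 counts over all 12 libraries. In the same comparison 6 of 7 primitive streak markers were called lower. The part of these marker lists in the results was not tested.

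**Figure D2:**
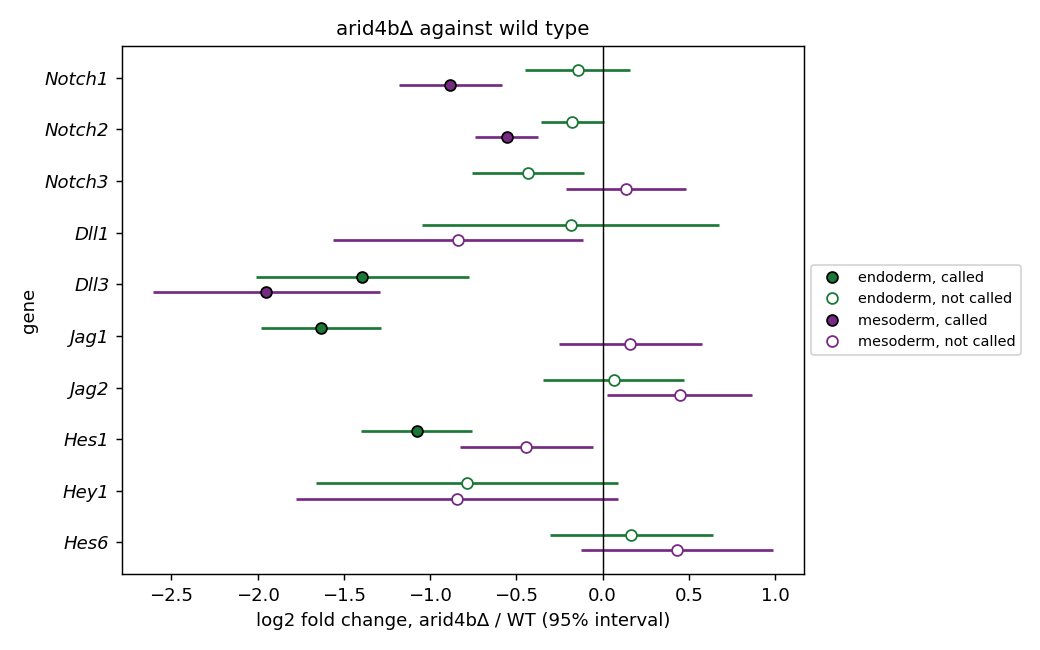
Log2 fold change of arid4b∆ against wild type (horizontal axis) for the 10 Notch genes (vertical axis) in endoderm (green) and mesoderm (purple); points are estimates, lines are 95% intervals, filled points passed the edgeR test and open points did not. Dll3 lies left of 0 in both lineages at -1.39 and -1.95, and Jag1 lies at -1.64 in endoderm and 0.16 in mesoderm.

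The difference between the 2 genotype effects was tested directly as an interaction. It passed for Jag1 alone among the members, with the endoderm effect lower than the mesoderm effect by -1.80 ± 0.26 on the log2 scale (SE; 95% interval -2.34 to -1.25; edgeR adjusted p = 0.000393). That is 1 of 10 members, where 1.4% of all tested genes were called, 0.627% higher and 0.774% lower. The 18 alternatives kept this call, with values between -2.02 and -1.58. Notch1, called in mesoderm and not in endoderm, had an interaction of 0.74 ± 0.21 that did not pass (95% interval 0.31 to 1.17, adjusted p = 0.0884). It passed without a filter (0.00679) and with the replicate number as a block (0.0424). It also passed without wild type mesoderm library 1 (0.86, adjusted p = 0.0147) or arid4b∆ mesoderm library 2 (0.92, adjusted p = 0.0323). The other 14 of 18 alternatives did not pass, with an adjusted p of up to 0.296. In the main fit Notch2 (0.38 ± 0.12, adjusted p = 0.17), Notch3 (-0.57 ± 0.23, 0.33) and Hes1 (-0.64 ± 0.24, 0.288) did not pass either. The effect on Dll3, called in both lineages, differed between them by 0.56 ± 0.45 (adjusted p = 0.756). An interaction that did not pass does not show that the effects were alike.

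Within wild type cells, endoderm and mesoderm differed in 6 of the 10 genes. Jag1, Hes1 and Notch3 were higher in endoderm, by 2.87-fold, 1.95-fold and 1.89-fold, and Dll1, Notch1 and Notch2 were lower, by 2.57-fold, 1.73-fold and 1.35-fold. Across all tested genes 4.41% were called higher in endoderm, 5.43% lower and 9.84% in either direction. The wild type libraries are the same ones that entered the genotype comparisons, so these values share their samples. Dll3, Jag2, Hey1 and Hes6 did not pass, with adjusted p between 0.149 and 0.951.

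The receptors divided in direction. Notch3 stood at 184, 212 and 201 CPM in wild type endoderm and at 106, 80.1 and 125 CPM in wild type mesoderm, a log2 difference of 0.92 ± 0.16 (edgeR adjusted p = 0.000471). Notch1 was on average 34.5 CPM in wild type endoderm and 58.9 CPM in wild type mesoderm (-0.79 ± 0.14; adjusted p = 0.00046), and Notch2 was 88.9 and 119.6 CPM (-0.43 ± 0.09; adjusted p = 0.0017). None of the 3 receptors overlapped between the lineages in wild type. Jag1 was on average 35.5 ± 7.69 CPM in endoderm and 12.5 ± 2.85 CPM in mesoderm (SD, n = 3), a log2 difference of 1.52 ± 0.17 (adjusted p = 2.08e-06). Hes1 followed the same order, at 34.7 ± 7.18 and 17.7 ± 1.55 CPM (0.97 ± 0.16; adjusted p = 0.00023). Dll1 was at 3.50, 2.06 and 5.10 CPM in endoderm and 7.01, 10.9 and 8.94 CPM in mesoderm, without overlap. Its log2 difference was -1.36 ± 0.36 (adjusted p = 0.0156). The Dll1 call was lost without the second wild type endoderm library (-1.01; adjusted p = 0.152) or without the third wild type mesoderm library (adjusted p = 0.0686), and over all alternatives the adjusted p ran from 0.000332 to 0.152. In all, 6 of 10 members had lineages that did not overlap in wild type, where 24.5% of all tested genes did.

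In arid4b∆ cells none of the 10 genes was called between endoderm and mesoderm by edgeR, where 0.945% of all tested genes were called higher, 0.902% lower and 1.85% in either direction. At an unadjusted p under 0.05 there was 1, Notch3, and DESeq2 and limma-voom called 0. Jag1 was at 11.6 ± 0.407 CPM in arid4b∆ endoderm and 14.0 ± 0.485 CPM in arid4b∆ mesoderm (SD, n = 3), slightly lower in endoderm without overlap, and did not pass (log2 difference -0.28 ± 0.19; edgeR adjusted p = 0.629). It was the only member without overlap there, 1 of 10, where 18.2% of all tested genes had none. Notch1 was at 30.8 and 32.1 CPM and Notch2 at 78.6 and 81.4 CPM, log2 differences of -0.05 for each, with adjusted p of 0.933 and 0.902. Notch3 had the largest difference of the receptors, 147 ± 32.1 against 116 ± 26.7 CPM (0.35 ± 0.16; adjusted p = 0.375). Whether the lineage difference itself changed with genotype is the interaction given before, which passed for Jag1 alone. Calls in wild type and not in arid4b∆ for Notch1, Notch2, Notch3, Dll1 and Hes1 are therefore not shown to differ in the main fit. The interaction passed in 4 of 18 alternatives for Notch1 and in 1 of 18 for Notch3.

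**Figure D3:**
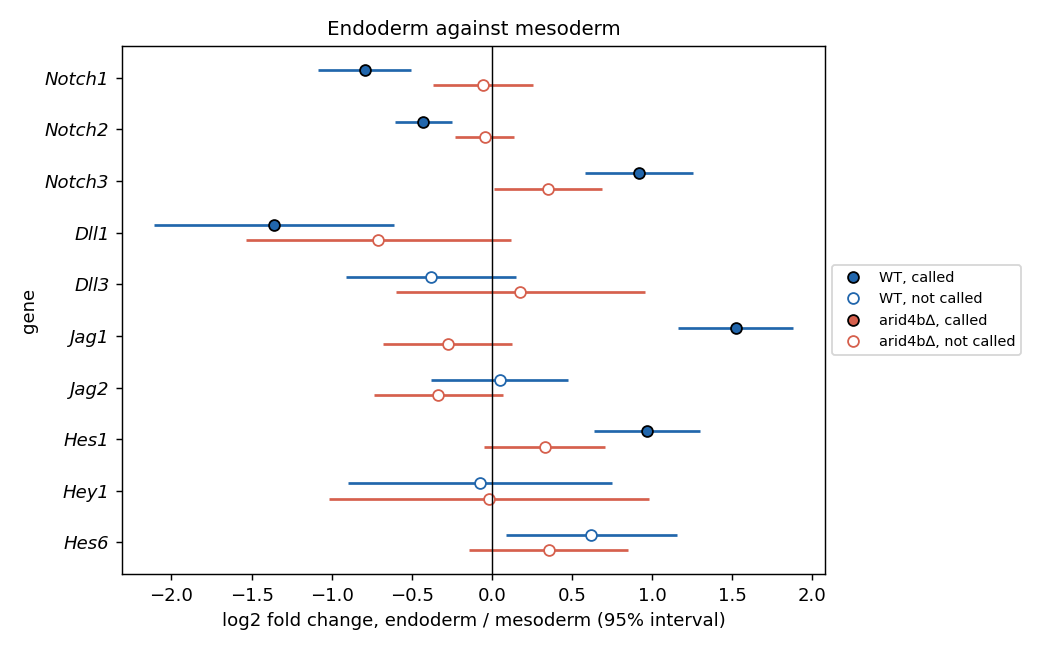
Log2 fold change of endoderm against mesoderm (horizontal axis) for the 10 Notch genes (vertical axis) in wild type (blue) and arid4b∆ (red) cells; points are estimates, lines are 95% intervals, filled points passed the edgeR test and open points did not. In wild type 6 genes have filled points, 3 on each side of 0, and in arid4b∆ none has.

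The rest of the pathway was followed in a list of 59 further genes, of which 57 were in the table and 43 were tested. In endoderm 4 of these 43 were called higher (9.3%, beside 5.78% of all tested genes) and 3 lower (6.98%, beside 6.92%) in arid4b∆ cells, a median log2 fold change of -0.08. In mesoderm 4 were called higher (9.3%, beside 8.97%) and 8 lower (18.6%, beside 10.1%), a median of -0.14. The share called lower in endoderm and the share called higher in mesoderm were thus near those of all genes. The interaction was called for 0 of the 43 by edgeR, DESeq2 and limma-voom, where edgeR called 1.4% of all tested genes. At an unadjusted edgeR p under 0.05 there were 7, where 1206 of all 11635 tested genes were.

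Among direct targets, Nrarp, a feedback inhibitor of the Notch complex, fell in endoderm together with Hes1. It stood at 11.1 ± 2.73 CPM in wild type and 5.15 ± 1.38 CPM in arid4b∆ endoderm (SD, n = 3), a log2 fold change of -1.19 ± 0.24 (edgeR adjusted p = 0.0016), and at 7.32 ± 0.979 and 6.59 ± 1.09 CPM in mesoderm. Of the Hes and Hey factors and Nrarp, 4 were tested. Hes1 and Nrarp were the 2 called lower in endoderm (50%, beside 6.92% of all tested genes). In mesoderm 0 of 4 were called, beside 19.1% of all tested genes (at an unadjusted p under 0.05 there was 1, Hes1). The classic targets Hes5, Hey2 and Heyl were near the limit of detection, with 5, 9 and 5 counts over all 12 libraries.

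In the nuclear complex, Maml3, a Mastermind co-activator, fell in both lineages. It stood at 16.9 ± 2.36 CPM in wild type and 6.76 ± 2.88 CPM in arid4b∆ endoderm (log2 fold change -1.35 ± 0.23; edgeR adjusted p = 0.000334). In mesoderm it stood at 19.8 ± 2.57 and 5.42 ± 1.23 CPM (-1.90 ± 0.25; adjusted p = 1.29e-05). Rbpj, the DNA-binding partner of the Notch intracellular domain, was at 56.6 ± 1.99 and 53.2 ± 2.84 CPM in endoderm, without a call. Rbpj rose in mesoderm, from 46.9 ± 3.01 to 63.3 ± 9.17 CPM (0.42 ± 0.11; adjusted p = 0.00844), a call lost without the third arid4b∆ mesoderm library (adjusted p = 0.0686). The co-repressors did not share a direction: Tle4 rose in both lineages (0.66 ± 0.11 and 0.44 ± 0.11; adjusted p = 0.000276 and 0.00534), and Tle3 fell in both (-0.38 ± 0.11 and -0.55 ± 0.12; adjusted p = 0.026 and 0.00212). The endoderm call of Tle3 was lost with DESeq2 and without any single library of that comparison other than arid4b∆ library 1, with an adjusted p of up to 0.159. Of the 19 tested genes of this list, 3 were called higher and 2 lower in endoderm, and 2 higher and 2 lower in mesoderm. Those were 26.3% of the list in endoderm, beside 12.7% of all tested genes, and 21.1% in mesoderm, near the 19.1% of all tested genes.

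Of the genes that cleave receptor and ligand, 8 were tested, and 4 were called lower in mesoderm (50%, beside 10.1% of all tested genes). Among them were the sheddases Adam10 and Adam17 and the gamma-secretase subunit Aph1a. Adam17 was at 38.2 ± 4.42 CPM in wild type and 25.3 ± 2.87 CPM in arid4b∆ mesoderm (log2 fold change -0.61 ± 0.13; edgeR adjusted p = 0.00169). Adam10 was at 25.2 ± 4.24 and 16.8 ± 1.63 CPM (-0.62 ± 0.15; adjusted p = 0.00641). Aph1a changed by -0.47 ± 0.14 (adjusted p = 0.0163). The median over the 8 was -0.38 in mesoderm, with 8 of 8 below 0, where 5726 of all 11635 tested genes were. In endoderm the median was -0.06, and 0 of the 8 were called by edgeR, beside 12.7% of all tested genes. There 1 had an unadjusted p under 0.05. The Adam10 call was lost without wild type mesoderm library 3 (adjusted p = 0.0897), and that of Aph1a with DESeq2 and without arid4b∆ library 2 (up to 0.0838). Adam17 and Aph1a overlap the gene models of Iah1 (239 counts) and Car14 (645 counts) in the annotation, and whether reads were counted by strand is not given in the sources used here.

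Among the genes of ligand endocytosis and receptor turnover, 11 were tested. Neurl1a, a ligand-directed ubiquitin ligase, fell in mesoderm from 13.2 ± 5.22 to 3.74 ± 1.09 CPM (log2 fold change -1.84 ± 0.31; edgeR adjusted p = 0.000204), and in endoderm it stood at 3.53 ± 0.507 and 2.69 ± 0.308 CPM. Dtx4, a Deltex ubiquitin ligase, rose in mesoderm from 6.35 ± 3.62 to 16.8 ± 4.14 CPM (1.40 ± 0.28; adjusted p = 0.00125). Without the first wild type mesoderm library that value was 2.03, over 1.5 times the fold. Without the third it was 0.99 (edgeR adjusted p = 0.0238). Dtx4 also rose in endoderm, from 17.5 ± 3.61 to 29.7 ± 2.70 CPM (0.75 ± 0.21; adjusted p = 0.0211), a call lost without wild type library 2 or 3 or arid4b∆ library 1 or 2 of endoderm (adjusted p up to 0.113). Dtx1 rose in mesoderm (1.20 ± 0.29; adjusted p = 0.00576) and Numb, an inhibitor of Notch trafficking, fell there (-0.53 ± 0.16; adjusted p = 0.0243), a call lost with DESeq2 and without wild type library 1 or 3 or arid4b∆ library 1 (up to 0.111). Of the 4 tested sugar transferases, which modify the receptor, 0 were called in either lineage by edgeR. Across all tested genes 12.7% were called in endoderm and 19.1% in mesoderm. In each lineage 1 sugar transferase had an unadjusted p under 0.05. Lfng, the Fringe enzyme of the segmentation clock, was at 3.57 CPM in wild type and 1.10 CPM in arid4b∆ mesoderm (-1.46 ± 0.55; adjusted p = 0.068).

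Between the lineages in wild type cells, 2 of the 43 further genes were called higher in endoderm (4.65%, near the 4.41% of all tested genes) and 5 lower (11.6%, beside 5.43%), a median log2 difference of -0.05. Dtx4 was higher in endoderm (1.48 ± 0.28; edgeR adjusted p = 0.00081) and Neurl1a lower (-1.94 ± 0.30; adjusted p = 0.000123). The Dtx4 value was 2.11 without the first wild type mesoderm library and 1.06 without the third (adjusted p = 0.0203). Tle4 was lower too (-0.60 ± 0.11; adjusted p = 0.000996). In arid4b∆ cells 0 of the 43 were called by edgeR, beside 1.85% of all tested genes. DESeq2 called 0 and limma-voom called 1. At an unadjusted edgeR p under 0.05 there were 8, where 1474 of all 11635 tested genes were.

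**Figure D4:**
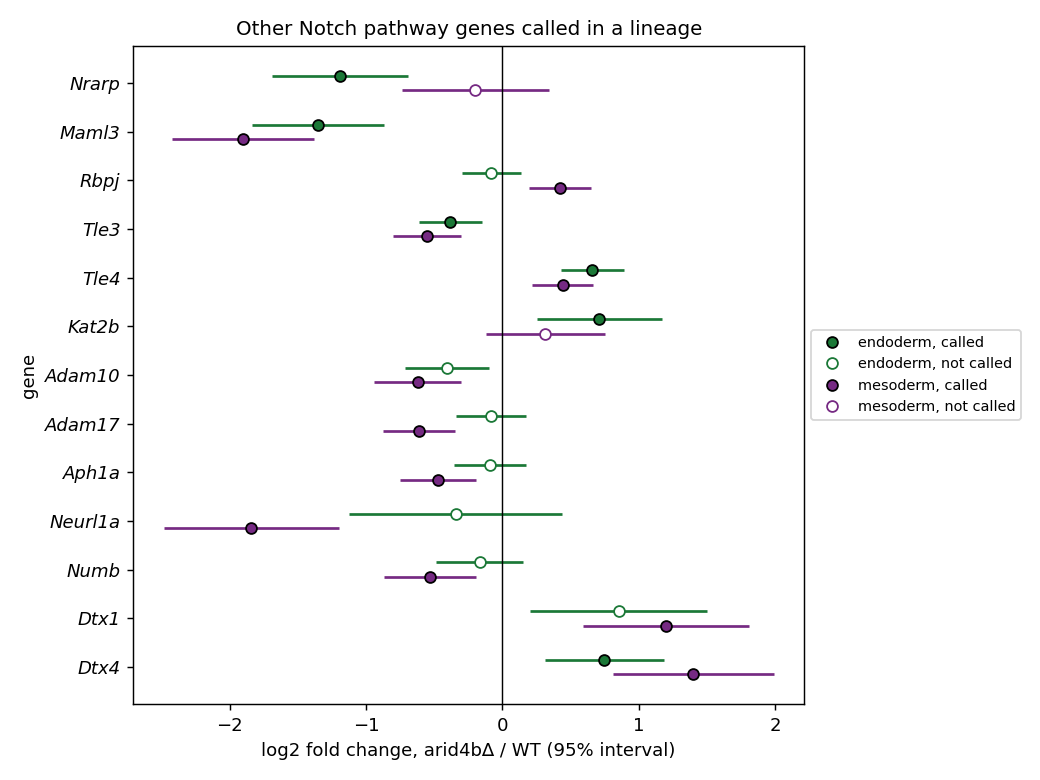
Log2 fold change of arid4b∆ against wild type (horizontal axis) in endoderm (green) and mesoderm (purple) for 13 of the 15 other Notch pathway genes called in either lineage (vertical axis, chosen by their calls; 2 are not drawn); points are estimates, lines are 95% intervals, filled points passed the edgeR test and open points did not. Maml3 lies at -1.35 and -1.90, Nrarp at -1.19 in endoderm, and Dtx4 at 0.75 and 1.40.

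Several known partners of these genes were too low to test. The receptor Notch4 held 73 counts and the ligand Dll4 4 counts over all 12 libraries. The 7 proneural bHLH factors, which Hes repressors hold down in neural progenitors, were all below the filter, from 1 count for Neurog1 and Neurog2 to 73 for Neurod1. Of the 8 segmentation genes of presomitic mesoderm only Dll1, Dll3 and Lfng were tested, while Tbx6, Msgn1, Mesp2, Hes7 and Ripply2 held 34, 48, 33, 13 and 1 counts.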

How the data were processed

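Total RNA was sequenced after ribosomal RNA depletion with a directional kit, per the labels' protocols. The authors deposited unnormalized read counts for each gene and library. STAR, DESeq2 and the build mm10 are named, without versions, per the submitters' processing notes. The counting program, its strand setting and its annotation were not given in the sources used here. Groups came from the sample titles, and each of the 12 libraries counted as 1 sample. Rn45s (79.6% to 82.4% of counts) entered neither library sizes nor tests, and 26 genes with a date where a count belongs were also removed, none of them in the lists used. Mir6236 and Lars2, which took 49.7% to 69.5% of the counts left, were kept.

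Counts were tested in R 4.3.3 with the edgeR 4.0.16 quasi-likelihood test (TMM scaling, filterByExpr with a minimum count of 10, 4 group means over all 12 libraries, Benjamini-Hochberg over 11635 genes at 0.05). The code was tested on simulated data. A standard error is the absolute log2 fold change over the square root of F. The biological coefficient of variation was 9.71%. Floors of 3 counts cover counting error only. Members and lists were chosen with earlier results of these data known. The named genes were all 10 members, Arid4b, up to 4 called genes of each list by adjusted p, and the 2 genes closest to each member; some list genes that are counted are not reported here by name. Alternatives were RLE scaling, no filter, DESeq2 1.42.0, limma-voom (limma 3.58.1), the replicate number as a block, only the groups compared, leaving out Mir6236 and Lars2, and leaving out each library. Exon lengths came from GENCODE M21, and positions and promoters from RefSeq, GRCm38.p6.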

Additional observations from a re-analysis of the deposited data

Results flagged for a closer look

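The genotype effect on Jag1 differed between the lineages by a test of the difference itself, at -1.80 on the log2 scale (endoderm effect minus mesoderm effect; edgeR adjusted p = 0.000393). Jag1 was lower in all 3 arid4b∆ endoderm libraries than in any wild type endoderm library, and the mesoderm groups overlapped. Definitive endoderm markers, summed, were at 99.5 to 142 CPM in wild type endoderm, the group with high Jag1, and at most 19.1 CPM in the other 9 libraries; their part in the difference was not tested.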

How the results depend on the processing

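Of the 13 member values that passed the test, none changed direction in 174 refits under the alternatives, and 172 kept the call; the other 2 were the Dll1 lineage difference in wild type with 1 library left out. Of the 37 that did not pass, 12 of 524 refits passed and 28 changed sign. Another scaling moved the median of all genes by less than 0.1 on the log2 scale. The cause of a change was not tested.

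The sources used here do not say whether libraries with the same replicate number belong together, so the main fit holds no block. In the data, 5 of 18 same-numbered pairs correlated above 0.1 (from -0.0559 to 0.193), and 14 of 18 correlated best with their own number. That is a hint of pairing from the data and not the design. With the replicate block, Notch3 in endoderm (adjusted p = 0.0103), the Notch1 interaction (0.0424) and Hes6 between wild type lineages (0.0495) passed. It gave 1 higher interaction among the members (0 without) and 1 among the other pathway genes (0 without), and 1 higher and 1 lower other gene between arid4b∆ lineages (0 and 0 without). Without a filter, Notch3 passed in endoderm (0.000769), Dll1 in mesoderm (0.0418) and the interactions of Notch1 (0.00679) and Notch3 (0.012), giving 1 higher and 2 lower members there and 1 higher other gene. Between arid4b∆ lineages no filter gave 1 higher member (Notch3) and 1 higher and 2 lower other genes. Fitting only the groups compared called Notch3 in endoderm (0.0249), 3 lower other genes between wild type lineages (5 otherwise) and 1 higher between arid4b∆ lineages. DESeq2 called 5 lower other genes in mesoderm (8 otherwise) and 3 between wild type lineages, limma-voom 1 higher between arid4b∆ lineages, and leaving out Mir6236 and Lars2 1 lower there.

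Leaving out 1 library at a time, other pathway genes called higher in endoderm ran from 2 to 3 (4 with all libraries) and between wild type lineages from 1 to 3, members with a higher interaction from 0 to 1, other genes with a higher or a lower interaction from 0 to 1, and other genes called higher or lower between arid4b∆ lineages from 0 to 1. Log2 values that did not pass and changed sign ran from -0.71 to 0.18 (Dll1), -0.0713 to 0.15 (Jag2) and -0.0246 to 0.33 (Hes6) in endoderm, and from -0.00668 to 0.31 (Notch3) in mesoderm. The interaction ran from -0.30 to 0.46 (Hey1) and -0.50 to 0.0176 (Hes6). Between wild type lineages it was -0.63 to 0.13 (Dll3), -0.0577 to 0.19 (Jag2) and -0.39 to 0.0949 (Hey1), and between arid4b∆ lineages -0.16 to 0.12 (Notch1), -0.0820 to 0.00126 (Notch2), -0.0666 to 0.36 (Dll3) and -0.38 to 0.38 (Hey1; 0.0138 with the block and 0.0552 with limma-voom).

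The counts over all tested genes, on which the background shares rest, also moved by over 1.5 times. In endoderm 319 genes were higher and 516 lower without wild type library 2 (673 and 805 with all), and 448 higher without arid4b∆ library 2. In mesoderm 689 were higher without wild type library 3 (1044 with all). Between wild type lineages 330 were higher without endoderm library 2 (513) and 380 lower without mesoderm library 3 (632). The interaction ran from 37 (without arid4b∆ mesoderm library 2) to 195 (without wild type mesoderm library 1) higher and from 66 to 159 (the same library) lower, with 73 and 90 in all libraries; 39 to 42 were higher without wild type endoderm library 1 or 2 or mesoderm library 3. Between arid4b∆ lineages 25 to 61 were higher without endoderm library 2 or 3 or mesoderm library 2 or 3 (110), and 50 and 34 lower without endoderm library 2 and mesoderm library 3 (105).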

Other observations

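Over the 12 libraries, members were compared by the root mean square difference of their log2 CPM, each centred on its mean. Notch1 and Notch2 were the closest pair of members at 0.234, then Jag1 and Hes1 at 0.328 and Notch3 and Hes1 at 0.402. These are descriptions over libraries that share their groups. Dll3 varied most, with an SD of 0.87 on the log2 scale, then Dll1 at 0.74 and Jag1 at 0.68, and Notch2 (0.25) and Jag2 (0.27) varied least.

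Among 8874 or 8875 other genes with a mean of at least 5 CPM, the nearest to Notch1 were Litaf (0.142) and Tead1 (0.156), and the nearest to Notch2 were Uba1 (0.0813) and Lin28a (0.0945). Notch3 lay nearest to Myc (0.193) and Kazn (0.210). Of the ligands, Dll1 lay nearest to Bai2 (0.336) and Ckb (0.387), Dll3 to Lgalsl (0.294) and Prtg (0.346), Jag1 to Rps6ka2 (0.185) and Mest (0.244), and Jag2 to Zfp64 (0.110) and Fpgs (0.135). Of the transcription factors, Hes1 lay nearest to Rap2a (0.207) and Plekha8 (0.208), Hey1 to Gria3 (0.260) and Orai3 (0.264), and Hes6 to Bola3 (0.223) and Polr2h (0.233). Genes with few counts, such as Dll1 and Hey1, have noisier profiles, so distances of different members are not on equal terms.

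Markers of neural cells, in which Hes repressors are well known, summed to 239 to 258 CPM in wild type endoderm, 253 to 267 CPM in arid4b∆ endoderm, 94.2 to 138 CPM in wild type mesoderm and 167 to 204 CPM in arid4b∆ mesoderm. In arid4b∆ endoderm 2 of 4 tested, Pou3f1 and Sox3, were called higher. The untested Sox1 was at 0 in wild type endoderm. Pluripotency markers summed to 304 to 390 CPM over all 12 libraries, with overlapping groups, but single genes were called: 2 higher and 1 lower of 7 in endoderm, 1 higher and 1 lower in mesoderm, and 3 lower in endoderm than in mesoderm in each genotype. Extraembryonic endoderm markers summed to 59.5 to 75.9 CPM in wild type endoderm and 112 to 118 CPM in arid4b∆ endoderm, and to 53.2 to 118 and 116 to 123 CPM in mesoderm. Of its 8 genes 3 were tested, and only Lrp2 was called higher, from 58.6 to 107 CPM in endoderm and from 52.7 to 89.3 CPM in mesoderm; in endoderm it made up most of the sum.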
